A study of Mus musculus with 15 samples.

Results

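The 9 genes described here carry out MHC class I antigen presentation: the classical heavy chains H2-K1 and H2-D1, the light chain B2m, the peptide transporter subunits Tap1 and Tap2, the loading factor Tapbp, the inducible proteasome subunits Psmb8 and Psmb9, and the transactivator Nlrc5. They were chosen by name, and all 9 were among the 17185 genes of the deposited count table. Their unique molecular identifiers (UMIs, tags that count each captured RNA molecule once) were summed per mouse, organ and stem call, and levels are given as CPM, the counts scaled to a fixed total of UMIs per sum. The data are single-cell RNA sequencing by Seq-Well, which captures cells in small wells, of 18919 cells. Of these, 10297 came from 3 high fat diet mice, whose food drew 60% of its kcal from fat, and 8622 from 2 control mice, whose food drew 10% from fat and matched it for sucrose. Each mouse gave colon, distal small intestine and proximal small intestine, so there are 15 samples. All 5 mice were 6 months old and carried the Lgr5-eGFP-IRES-CreERT2 allele, in which the Lgr5 locus drives eGFP and an inducible Cre. The authors' stem call, held by 4618 cells, equalled at least 1 UMI of Lgr5 or eGFP in all cells, so stem-called cells are defined by that detection and not by a wider set of stem cell genes.

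Depth differed between libraries. Stem-called cells numbered 27 to 617 per sample and their sums held 321496 to 13694552 UMIs, of which the 9 genes made up 0.122 to 0.467%. Median UMIs per cell were highest in control mouse 2 and high fat diet mouse 3, so depth and mouse cannot be told apart. In every sum, 7 or 8 of 8 epithelial markers (such as Epcam and Krt8) were detected. Cells with at least 3 UMIs over 18 leukocyte genes (such as Ptprc and Cd3e) were set apart as leukocyte-marked. There were 1603 of them, with a median of 5852 UMIs against 13693.5 UMIs in unmarked cells, and 198 held the stem call. In the colon they were 292 of 549, 114 of 324 and 99 of 1102 cells in high fat diet mice 1, 2 and 3, against 108 of 1495 and 143 of 902 cells in control mice 1 and 2. The first pair of high fat diet colons thus held the most, and values without these cells are given beside the colon results. Of 18898 cell barcodes, 16 occurred in more than 1 library.

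Class I molecules show peptides from inside the cell to CD8 T cells. Proteasomes cut proteins into peptides, the TAP transporter carries them into the endoplasmic reticulum, tapasin (Tapbp) holds empty class I molecules at TAP, and a heavy chain with B2m takes a peptide to the cell surface. Interferon gamma raises the whole set in many cell types, in part through IRF1, and NLRC5 acts on the promoters of class I genes.

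In the GENCODE M21 annotation of GRCm38 (the submitters' processing notes name the same build, mm10), 7 of the 9 genes lie on chromosome 17. Tapbp is at chr17:33915899-33929292, H2-K1 at chr17:33996017-34000347, Psmb9 at chr17:34181987-34187764, Tap1 at chr17:34187553-34197225, Psmb8 at chr17:34197721-34201454, Tap2 at chr17:34203527-34216321 and H2-D1 at chr17:35262730-35267499. B2m lies apart at chr2:122147686-122153083, and Nlrc5 at chr8:94434356-94527272. H2-K1 and Psmb9 are on the minus strand and the other 7 on the plus strand. RefSeq promoter windows (GRCm38.p6, 250 bases before to 50 after the start) matched 7 of the 9 genes by symbol. Those of H2-K1, H2-D1, B2m and Tap1 are shown because these genes encode the class I molecule and its peptide transporter and were higher together in the colon. Capitals mark matches, on either strand, to motifs picked with these promoters in view: TTTCNNTTC and GAAANNGAA (interferon-response type), GGNNTTNCC (kB type), TGACG (the core of a cAMP-response element) and CCAAT.
H2-K1 promoter, chr17:34000298-34000597, minus strand: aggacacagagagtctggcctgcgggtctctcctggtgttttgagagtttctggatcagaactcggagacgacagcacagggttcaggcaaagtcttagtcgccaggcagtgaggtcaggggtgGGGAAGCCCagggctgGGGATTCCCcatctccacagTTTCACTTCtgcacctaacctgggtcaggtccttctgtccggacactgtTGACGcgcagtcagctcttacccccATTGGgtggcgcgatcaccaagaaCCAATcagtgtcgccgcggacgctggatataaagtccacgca
H2-D1 promoter, chr17:35262844-35263143, plus strand: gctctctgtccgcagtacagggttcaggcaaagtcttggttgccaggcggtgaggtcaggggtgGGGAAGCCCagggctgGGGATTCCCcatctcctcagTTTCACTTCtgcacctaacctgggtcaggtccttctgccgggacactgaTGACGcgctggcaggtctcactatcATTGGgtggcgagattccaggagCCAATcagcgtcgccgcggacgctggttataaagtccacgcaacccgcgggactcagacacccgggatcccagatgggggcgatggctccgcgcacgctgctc
B2m promoter, chr2:122147437-122147736, plus strand: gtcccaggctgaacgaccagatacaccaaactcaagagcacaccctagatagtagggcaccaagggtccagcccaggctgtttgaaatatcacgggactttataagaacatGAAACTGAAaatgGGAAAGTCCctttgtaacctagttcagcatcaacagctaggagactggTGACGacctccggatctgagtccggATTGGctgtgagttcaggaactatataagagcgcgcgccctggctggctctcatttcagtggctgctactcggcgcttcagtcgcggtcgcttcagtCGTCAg
Tap1 promoter, chr17:34187306-34187605, plus strand: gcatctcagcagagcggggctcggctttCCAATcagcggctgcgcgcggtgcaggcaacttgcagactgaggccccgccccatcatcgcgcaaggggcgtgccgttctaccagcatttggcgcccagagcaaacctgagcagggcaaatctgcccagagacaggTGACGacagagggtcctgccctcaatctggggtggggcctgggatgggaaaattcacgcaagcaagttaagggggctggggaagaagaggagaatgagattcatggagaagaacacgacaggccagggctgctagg
The H2-K1 and H2-D1 windows each held TTTCNNTTC, TGACG and 2 copies each of GGNNTTNCC and CCAAT, in the same order. B2m held GAAANNGAA, GGNNTTNCC, CCAAT and 2 copies of TGACG. Tap1 held TGACG and CCAAT only, in a window that shares 275 of its 300 bases with that of Psmb9, which runs the other way. Of the windows not shown, Psmb8 held 0 matches to any motif, Tapbp 2 copies of CCAAT, and Psmb9 TGACG and CCAAT. Over the 7 windows TTTCNNTTC was found in 2, GAAANNGAA in 1, GGNNTTNCC in 3, TGACG in 5 and CCAAT in 6, so the motifs were not shared by the whole set. Among all 32851 RefSeq promoter windows, TTTCNNTTC matched 7.52%, GAAANNGAA 8.56%, GGNNTTNCC 16%, TGACG 20.8% and CCAAT 37.4%, so the last 3 are common. No motif overlapped another in the windows shown. A match describes the letters and is not evidence that a factor binds there.

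The first comparison was between organs. In stem-called cells all 9 genes were higher in the colon than in the small intestine, against a background of 14.7% of 11490 tested genes called higher (edgeR's quasi-likelihood test with mouse as a block and Benjamini-Hochberg adjustment over all genes, threshold 0.05). The median log2 fold change of the 9 genes was 1.59, against -0.015 over all genes tested. For 8 of the 9 every colon sum lay above every small intestine sum, which was so for 4.64% of the genes tested.

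RNA of the 2 classical heavy chains was more abundant in colon cells. H2-K1, a heavy chain that binds the peptide, had 1264, 1036 and 1094 CPM in the colon of high fat diet mice 1, 2 and 3, and 931 and 1133 CPM in the colon of control mice 1 and 2. In the distal small intestine it had 342, 286 and 451 CPM in high fat diet mice and 349 and 363 CPM in control mice, and in the proximal small intestine 329, 363 and 327 CPM in high fat diet mice and 363 and 380 CPM in control mice. Colon and small intestine did not overlap, and the proximal values lay within the range of the distal ones. The fold change of H2-K1, colon over small intestine, was 1.59 ± 0.086 on the log2 scale (SE, edgeR, adjusted p = 2.23e-09, n = 5 mice). H2-D1, the other classical heavy chain, averaged 708 ± 155 CPM in the colon, 252 ± 71.4 CPM in the distal and 200.1 ± 40.0 CPM in the proximal small intestine (SD, n = 5 mice each). Its log2 fold change was 1.62 ± 0.092 (SE, edgeR, adjusted p = 3.93e-09). The lowest colon value was 445 CPM in control mouse 1, above the highest small intestine value of 361 CPM in the distal sample of high fat diet mouse 3. The ends of the 2 transcripts share some sequence: 8.28% of the 30-base words in the last 500 bases of H2-K1 occur in H2-D1 transcripts, and 6.37% the other way, so a small part of their reads could be assigned to either gene.

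B2m, the light chain that every class I molecule needs, had 1476, 1101 and 999.6 CPM in the colon of high fat diet mice 1, 2 and 3, and 909 and 784 CPM in the colon of control mice 1 and 2. It averaged 472 ± 95.2 CPM in the distal and 462 ± 65.9 CPM in the proximal small intestine (SD, n = 5 mice each). The log2 fold change was 1.14 ± 0.10 (SE, edgeR, adjusted p = 6.37e-07), the smallest among the genes of the class I molecule.

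Of the peptide-loading genes, Tap1 differed more than Tap2 and Tapbp. Tap1, a subunit of the transporter, had 171, 115 and 109 CPM in the colon of high fat diet mice 1, 2 and 3, and 102 and 69.4 CPM in the colon of control mice 1 and 2. Its small intestine sums held 16.8 to 34.2 CPM, well below all colon values, and its log2 fold change was 1.99 ± 0.11 (SE, edgeR, adjusted p = 1.97e-09). Tap2, the partner subunit, averaged 19.0 ± 4.73 CPM in the colon, 9.09 ± 2.21 CPM in the distal and 11.1 ± 0.498 CPM in the proximal small intestine (SD, n = 5 mice each), with a log2 fold change of 0.90 ± 0.16 (SE, edgeR, adjusted p = 4.89e-04). Tap2 rests on few molecules, with 5 UMIs in the colon sum of high fat diet mouse 2. Tapbp averaged 179 ± 20.4 CPM in the colon, 131 ± 20.2 CPM in the distal and 117 ± 19.9 CPM in the proximal small intestine (SD, n = 5 mice each). It was the member whose colon and small intestine sums overlapped, with a lowest colon value of 154 CPM and a highest small intestine value of 162 CPM. Its log2 fold change of 0.50 ± 0.086 (SE, edgeR, adjusted p = 3.89e-04) was also the smallest. With every cell thinned to 3000 UMIs and the stem call made again, it was 0.18 (edgeR, adjusted p = 0.634), and over its other alternatives the change kept its sign and its call.

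RNA of the inducible proteasome subunits, which replace constitutive ones and alter the peptides made, was higher in the colon too. Psmb8 had 635, 482 and 525 CPM in the colon of high fat diet mice 1, 2 and 3, and 417 and 387 CPM in the colon of control mice 1 and 2. Its small intestine sums held 117 to 238 CPM, all below the colon ones, and its log2 fold change was 1.69 ± 0.15 (SE, edgeR, adjusted p = 4.68e-07). Psmb9 averaged 106 ± 42.5 CPM in the colon, 35.4 ± 12.6 CPM in the distal and 51.3 ± 5.24 CPM in the proximal small intestine (SD, n = 5 mice each), with a log2 fold change of 1.22 ± 0.15 (SE, edgeR, adjusted p = 1.36e-05). The genes did not all rank the organs alike, since Psmb9 was lowest in the distal small intestine.

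Nlrc5, the transactivator of class I genes, was scarce and had the largest fold change of the 9 genes. It had 21.5, 15.6 and 19.7 CPM in the colon of high fat diet mice 1, 2 and 3, from 35, 5 and 85 UMIs, and 17.1 and 9.36 CPM in the colon of control mice 1 and 2, from 29 and 24 UMIs. In the small intestine it had 0 to 2.31 CPM, from at most 28 UMIs in a sum. The distal sum of high fat diet mouse 2 held 0 UMIs of 1607657, and a count of 0 allows up to 1.87 CPM there (3 counts, counting error only). The fitted log2 fold change was 3.65 ± 0.36 (SE, edgeR, adjusted p = 1.61e-06).

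**Figure D1:**
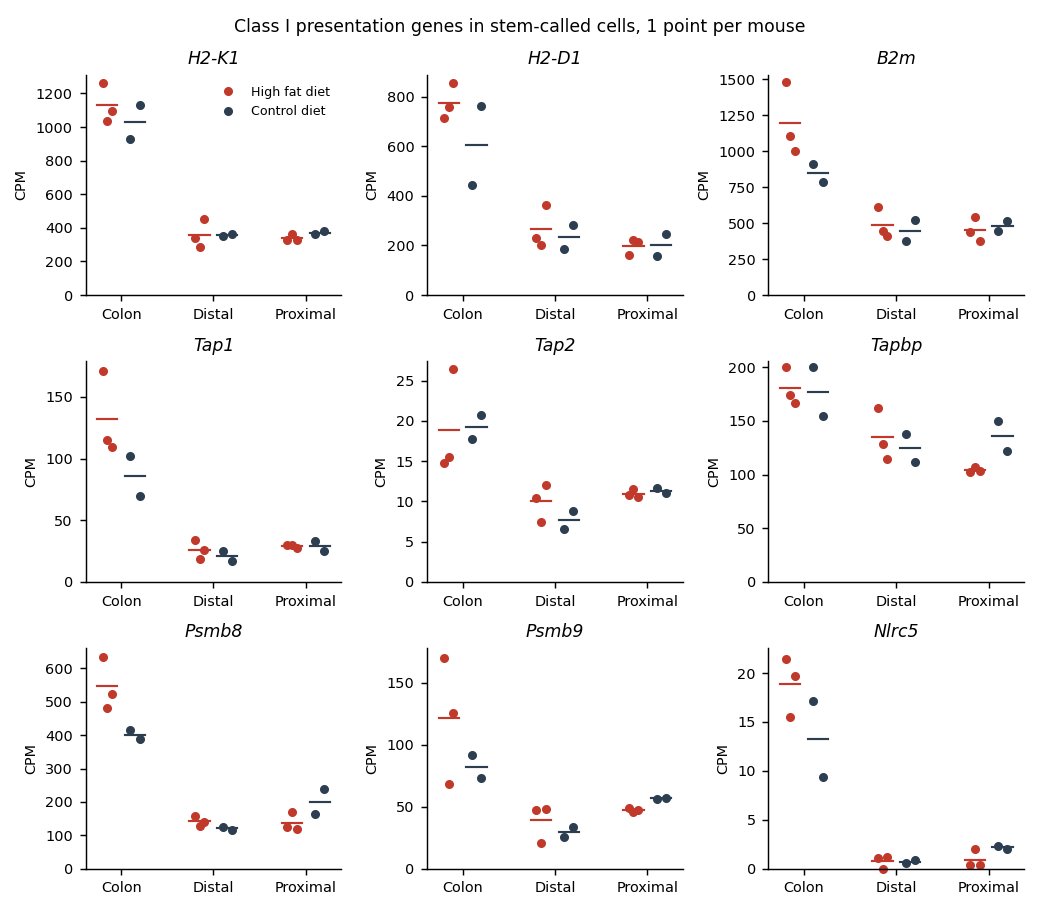
CPM (linear axis from 0) of each of the 9 genes in sums of stem-called cells, by organ, with 1 point per mouse in red for the high fat diet (n = 3) and dark blue for the control diet (n = 2), and a bar at each mean. Colon points lie above all small intestine points for every gene except Tapbp, where 154 CPM in the colon and 162 CPM in the distal small intestine overlap.

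In cells without the stem call the colon was again above the small intestine. All 9 genes were called higher in the colon (background 22.8% of 13362 genes), and for 9 of 9 no colon sum overlapped a small intestine sum (background 5.76%). Log2 fold changes there were 1.68 ± 0.10 for H2-K1, 1.65 ± 0.11 for H2-D1, 1.22 ± 0.087 for B2m, 1.74 ± 0.10 for Tap1, 1.33 ± 0.16 for Tap2, 0.61 ± 0.087 for Tapbp, 1.36 ± 0.14 for Psmb8, 0.91 ± 0.10 for Psmb9 and 2.96 ± 0.22 for Nlrc5 (SE, edgeR, adjusted p between 1.61e-07 and 1.56e-04). The median was 1.36, against -0.015 over all genes. Whether the organ difference itself differs between the cell populations was not tested.

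The leukocyte marker sum of stem-called cells reached its highest value in the colon, though its ranges overlapped between organs. Values without leukocyte-marked cells therefore stand beside these. Summed over the 18 leukocyte genes, stem-called colon cells held 62.5 to 187 CPM in high fat diet mice and 64.4 to 118 CPM in control mice. The stem-called distal cells held 44.2 to 135 CPM in high fat diet mice and 44.4 to 83.1 CPM in control mice, and the proximal cells 36.6 to 111 CPM in high fat diet mice and 37.8 to 90.7 CPM in control mice. Without leukocyte-marked cells the colon-over-small-intestine log2 fold changes in stem-called cells were 1.63 for H2-K1, 1.16 for B2m, 1.97 for Tap1, 1.69 for Psmb8 and 4.21 for Nlrc5, and all 9 genes were called in both populations. The organ difference was about as large without these cells. Unmarked cells without the stem call still held leukocyte transcripts, 18.2 to 37.2 CPM in colons of high fat diet mice and 26.5 to 29.0 CPM in colons of control mice, against 11.01 to 70.4 CPM in the small intestine of high fat diet mice and 10.5 to 26.4 CPM in that of control mice. The 7 measured B and plasma cell markers did move with the organ. In stem-called cells they summed to 927 to 1680 CPM in colons of high fat diet mice and 687 to 1015 CPM in colons of control mice, against 140 to 632 CPM in the small intestine of high fat diet mice and 281 to 385 CPM in that of control mice. Most of this sum was Cd74, the invariant chain of MHC class II, which epithelial cells can also express, with 987 ± 264 CPM in colon, 365 ± 129 CPM in distal and 230.3 ± 106 CPM in proximal stem-called cells (SD, n = 5 mice each). The B cell gene Cd79a averaged 3.97 ± 3.69 CPM in colon, 0.92 ± 1.26 CPM in distal and 0.20 ± 0.37 CPM in proximal stem-called cells. Without leukocyte-marked cells the colon average was 0.38 ± 0.36 CPM for Cd79a and 974 ± 259 CPM for Cd74. The plasma cell gene Igha stayed, with a colon average of 68.6 ± 89.3 CPM with marked cells and 67.2 ± 88.8 CPM without. Its unmarked stem-called cells averaged 23.1 ± 39.8 CPM in distal and 4.58 ± 4.25 CPM in proximal samples. In unmarked colon cells Igha spanned 3.45 to 206 CPM in high fat diet mice and 3.40 to 17.2 CPM in control mice. T cell markers did not follow the organ in that way, with 12.4 to 43.3 CPM in colons of high fat diet mice and 27.2 to 89.7 CPM in colons of control mice, against 57.2 to 178 CPM in proximal samples of high fat diet mice and 70.8 to 181 CPM in those of control mice. The part of these leukocyte, B, plasma and T cell transcripts in the result was not tested.

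**Figure D2:**
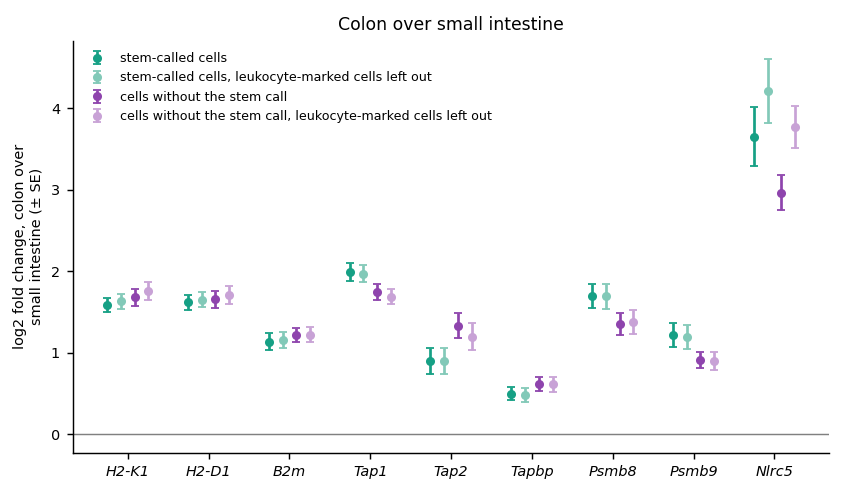
Log2 fold change, colon over small intestine, of the 9 genes with its SE (bars), in stem-called cells (green) and cells without the stem call (purple), with all cells (dark) and without leukocyte-marked cells (light), from fits over 15 sums of 5 mice. All values lie above 0, from 0.47 for Tapbp in stem-called cells without leukocyte-marked cells to 4.21 for Nlrc5 in the same cells.

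Within the small intestine the members were called at about the rate of all genes tested. In stem-called cells 1 of 9 was called between the distal and the proximal part, against 11.6% of genes tested. This was Psmb9, lower in the distal part, with 47.7, 21.1 and 48.6 CPM in distal samples of high fat diet mice 1, 2 and 3 and 25.3 and 34.1 CPM in those of control mice 1 and 2. Its proximal samples had 49.0, 45.9 and 47.7 CPM in high fat diet mice and 56.6 and 57.2 CPM in control mice. High fat diet mouse 3 was the only mouse without a lower distal value, and the log2 fold change was -0.57 ± 0.17 (SE, edgeR, adjusted p = 0.0411). The call was lost without control mouse 1 (-0.47, edgeR, adjusted p = 0.175), without control mouse 2 (-0.49, adjusted p = 0.104) and without high fat diet mouse 2 (-0.50, adjusted p = 0.153). Over its alternatives the adjusted p lay between 0.0175 and 0.491.

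In cells without the stem call 2 of 9 were called, against 18.4% of genes. Psmb9 was again lower in the distal part, by a log2 fold change of -0.68 ± 0.12 (SE, edgeR, adjusted p = 0.00271), with 35.8 to 57.6 CPM in distal sums of high fat diet mice and 33.9 and 45.2 CPM in those of control mice, against 65.5 to 69.1 CPM in proximal sums of high fat diet mice and 71.7 and 78.5 CPM in those of control mice. Nlrc5 was higher in the distal part, by 1.28 ± 0.28 on the log2 scale (SE, edgeR, adjusted p = 0.00929). Without leukocyte-marked cells the difference of Nlrc5 was 0.31 (edgeR, adjusted p = 0.626), so its call was lost, while Tap1 was then called lower (-0.46, adjusted p = 0.0149). Over its alternatives the adjusted p of Nlrc5 reached 0.626.

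Other genes of the pathway were read from lists of class I relatives, peptide supply, constitutive proteasome subunits and regulators. Of 17 other class I and class I-like genes, 14 were in the table and 11 were tested between colon and small intestine stem-called cells, where 28.5% of genes were called in either direction. There 7 were higher and 1 lower in the colon, with a median log2 fold change of 1.31. H2-Q7, a nonclassical heavy chain, averaged 132 ± 51.3 CPM in the colon, 6.28 ± 1.75 CPM in the distal and 8.86 ± 2.48 CPM in the proximal small intestine (SD, n = 5 mice each), a log2 fold change of 4.13 ± 0.13 (SE, edgeR, adjusted p = 1.07e-11). H2-Q6, a near copy whose reads may be split with H2-Q7, had a log2 fold change of 4.22. Cd1d1, which presents lipids to NKT cells, had 1.86, H2-Q4 1.43, H2-T23, the ligand of NKG2A receptors, 1.37, H2-T22 1.31 and H2-M3, which presents formylated peptides, 1.12, all on the log2 scale. H2-T3, the thymus leukaemia antigen known from small intestine epithelium, went the other way, with 53.1 ± 21.5 CPM in the colon, 75.4 ± 13.2 CPM in the distal and 79.9 ± 9.07 CPM in the proximal small intestine (SD, n = 5 mice each; log2 fold change -0.56, edgeR, adjusted p = 0.0246).

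Of 12 peptide supply and loading genes, 5 were higher and none lower in colon stem-called cells, with small differences. For this and the following lists the background was 14.7% of genes called higher and 28.5% called in either direction. Tapbpl, a peptide editor, had a log2 fold change of 0.58, Psmb10, the remaining inducible proteasome subunit, 0.57, the proteasome activator subunits Psme1 and Psme2 0.44 and 0.36, and Pdia3, a chaperone of the loading complex, 0.20. The list's median was 0.16. None of the 3 constitutive subunits Psmb5, Psmb6 and Psmb7 was called (median 0.10). Of 18 regulators, 6 were higher and 2 lower, with a median of 0.14. Irf1, an interferon-induced transcription factor, averaged 256 ± 38.1 CPM in the colon, 127 ± 28.3 CPM in the distal and 137 ± 35.1 CPM in the proximal small intestine (SD, n = 5 mice each), a log2 fold change of 0.93 ± 0.10 (SE, edgeR, adjusted p = 4.32e-06). Irf8 had a log2 fold change of 0.89, Irf9 0.77, Stat2 0.62 and Nfkb1 0.27, while the receptor subunit Ifngr2 had -0.30 and the kinase Jak1 -0.25.

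The log2 ratio of an inducible proteasome subunit to the constitutive one it replaces was taken from UMI counts within each sum. It separated the colon from the small intestine for Psmb9, and for Psmb8 only within each mouse. The ratio of Psmb9 to Psmb6 was -0.79 ± 0.45 in colon, -2.40 ± 0.40 in distal and -1.87 ± 0.19 in proximal stem-called cells (SD, n = 5 mice each), and the lowest colon ratio of -1.22 lay above the highest small intestine ratio of -1.71. The ratio of Psmb8 to Psmb5 was 3.48 ± 1.08, 1.88 ± 0.92 and 1.89 ± 0.55 in colon, distal and proximal cells (SD, n = 5 mice each). Its organ ranges overlapped between mice, but in every mouse the colon ratio was above both small intestine ratios. In control mouse 2, for example, it was 2.20 in colon, 0.82 in distal and 1.93 in proximal cells. The ratio of Psmb10 to Psmb7 was 3.87 ± 1.73 in the colon, 2.90 ± 0.43 in the distal and 2.89 ± 0.30 in the proximal small intestine. Its colon spread came from the sum of high fat diet mouse 2, at 6.88, which held 118 UMIs of Psmb10 and 1 UMI of Psmb7. The organs overlapped, and in control mouse 2 the colon ratio of Psmb10 to Psmb7 was the lowest of the organs, at 2.48. Captured 3' ends differ between genes, so a ratio is read across organs and not as a stoichiometry.

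**Figure D3:**
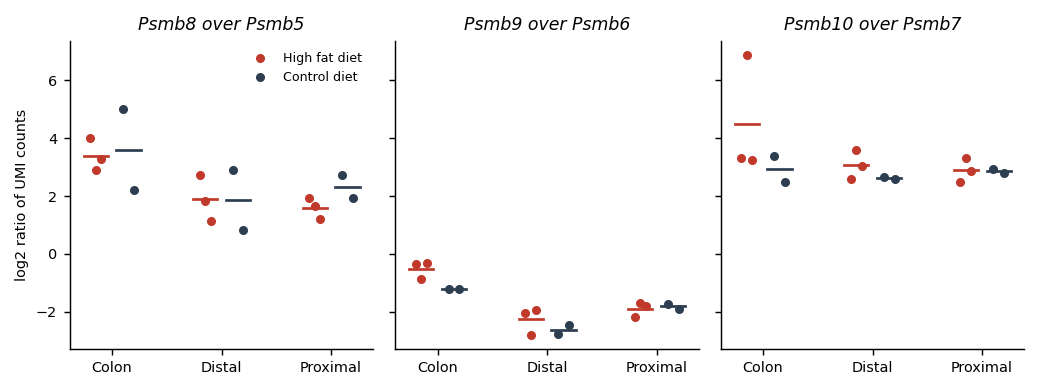
Log2 ratio of UMI counts of each inducible proteasome subunit to its constitutive partner in stem-called cells, by organ, with 1 point per mouse in red for the high fat diet (n = 3) and dark blue for the control diet (n = 2), and bars at the means. The ratio of Psmb9 to Psmb6 separates the colon, lowest at -1.22, from the small intestine, highest at -1.71. The other ratios overlap between mice, though within every mouse the ratio of Psmb8 to Psmb5 is highest in the colon.

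The study's main question concerned the diet. In stem-called cells none of the 9 genes was called between the high fat and the control diet in any organ, where 0% of 12339 genes were called in the colon, 0.0081% in the distal and 0.122% in the proximal small intestine (edgeR, no block, 15 sums in 6 groups). DESeq2 called none of the 9 either. At an unadjusted p under 0.05, 3 of 9 were counted in the colon (background 2.54%), 0 in the distal (2.67%) and 1 in the proximal small intestine (3.72%). In cells without the stem call the calls were 0 of 9 in the colon (0% of 14307 genes), the distal (0.00699%) and the proximal part (0.0839%), and 0 of 9 at an unadjusted p under 0.05 in each (3.44%, 2.01% and 3.1%). DESeq2 again called none.

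In the colon all 9 genes had a positive log2 fold change in stem-called cells, with a median of 0.48 against 0 over all genes. With a mouse left out the values ranged from 0.37 to 0.95 for Tap1, 0.37 to 0.52 for Psmb8, 0.35 to 0.64 for B2m, 0.36 to 0.83 for Psmb9, 0.18 to 1.06 for Nlrc5, 0.050 to 0.81 for H2-D1 and 0.023 to 0.29 for H2-K1. Tap2 turned negative when high fat diet mouse 3 or control mouse 1 was left out, with -0.35 as its lowest value, and Tapbp when high fat diet mouse 1 or control mouse 2 was left out, with -0.14 as its lowest. Tap1 averaged 132 ± 34.2 CPM on the high fat diet (SD, n = 3) and 85.9 ± 23.2 CPM on the control diet (SD, n = 2), a log2 fold change of 0.66 ± 0.26 (SE, edgeR, unadjusted p = 0.0242, adjusted p = 1). Psmb8 averaged 547 ± 78.7 CPM on the high fat diet and 402 ± 20.8 CPM on the control diet, a log2 fold change of 0.48 ± 0.21 (edgeR, unadjusted p = 0.035, adjusted p = 1). B2m averaged 1192 ± 251 CPM on the high fat diet and 847 ± 88.8 CPM on the control diet, a log2 fold change of 0.53 ± 0.23 (edgeR, unadjusted p = 0.0394, adjusted p = 1). For each of these genes the high fat diet values all lay above both control values, which was so for 3 of the 9 genes and for 5.87% of all genes tested. The differences did not pass the adjusted threshold. Some of these colon sums are small, with 79, 27 and 200 stem-called cells in high fat diet mice 1, 2 and 3. Control mice 1 and 2 had 279 and 113. Without leukocyte-marked cells the log2 fold changes were 0.64 for Tap1, 0.46 for Psmb8 and 0.49 for B2m. The values for Psmb9 were 0.64 ± 0.30, for Nlrc5 0.59 ± 0.54, for H2-D1 0.39 ± 0.30, for H2-K1 0.16 ± 0.18, for Tap2 0.076 ± 0.30 and for Tapbp 0.058 ± 0.19 (log2 fold change ± SE). Between the deeper mice (high fat diet mouse 3 and control mouse 2) and among the shallower ones (high fat diet mice 1 and 2, and control mouse 1), the colon log2 ratios were 0.65 and 0.48 for Tap1, 0.44 and 0.42 for Psmb8, 0.35 and 0.50 for B2m, 0.78 and 0.38 for Psmb9, 1.07 and 0.11 for Nlrc5 and 0.16 and 0.73 for H2-D1. The sign turned between the depth sets for H2-K1 (-0.050 and 0.30), Tap2 (0.35 and -0.23) and Tapbp (0.11 and -0.093). Each depth set has a single mouse in at least 1 diet, so no test was made within it.

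In the colon cells without the stem call, 8 of 9 genes had a positive log2 fold change (median 0.17), between -0.080 for Tapbp and 0.35 for Psmb9. Here leukocyte-marked cells were unequal between diets: the 18 leukocyte genes summed to 208 to 2297 CPM in high fat diet mice and 360 to 476 CPM in control mice. Without those cells the value for Tap1 was 0.049 ± 0.20, against 0.30 ± 0.21 with them, and that for Nlrc5 was -0.47 ± 0.49, against 0.17 ± 0.71 with them (log2 fold change ± SE). In the same colons the 2 control mice were far apart for some genes, with 484 and 1247 CPM of H2-D1 and 18.7 and 42.3 CPM of Tap2 in control mice 1 and 2.

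In the proximal small intestine 7 of 9 genes had a negative log2 fold change in stem-called cells (median -0.098). Psmb8 was the one with the smallest unadjusted p, with 124, 169 and 119 CPM in high fat diet mice 1, 2 and 3 and 165 and 238 CPM in control mice 1 and 2, a log2 fold change of -0.53 ± 0.20 (SE, edgeR, unadjusted p = 0.0185, adjusted p = 1). The diets overlapped, and the ratio was -1.0 between the deeper mice and -0.17 among the shallower ones. Nlrc5 had the most negative value, -1.07 ± 0.63 (SE, edgeR, unadjusted p = 0.108, adjusted p = 1), from 1, 9 and 2 UMIs in high fat diet mice and 19 and 28 UMIs in control mice. In the distal small intestine 8 of 9 values were positive (median 0.17), between -0.021 for H2-K1 and 0.38 for Tap1.

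The diet effect was then compared between organs. None of the 9 genes was called in stem-called cells for the colon minus the proximal part or for the distal minus the proximal part (0% of genes each), nor in cells without the stem call (0.00699% and 0%). At an unadjusted p under 0.05, 1 of 9 was counted in stem-called cells in each contrast (backgrounds 1.74% and 1.44%), and 0 of 9 in the other cells (2.5% and 1.03%). That gene was Psmb8 both times. Its diet effect was higher in the colon than in the proximal part by 1.01 ± 0.29 on the log2 scale (SE, edgeR, unadjusted p = 0.00326, adjusted p = 1) and higher in the distal than in the proximal part by 0.72 ± 0.29 (unadjusted p = 0.024, adjusted p = 1). Both contrasts use the same proximal samples.

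**Figure D4:**
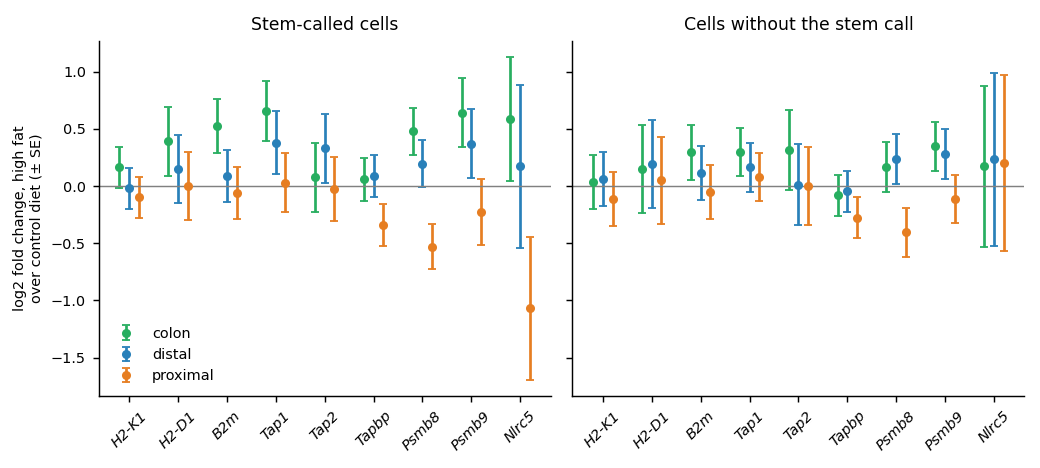
Log2 fold change, high fat over control diet, of the 9 genes with its SE (bars), by organ, in stem-called cells (left panel) and cells without the stem call (right panel), n = 3 and 2 mice. None passed the adjusted threshold. In stem-called cells the colon values reach 0.66 for Tap1, while in the proximal small intestine Psmb8 has -0.53 and Nlrc5 -1.07.

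Stem-called cells were next set against the other cells of the same libraries. They held less of several members: 7 of 9 were called lower in the proximal part (background 24.7% of genes lower), 6 of 9 in the distal part (24%) and 2 of 9 in the colon (17.4%), and none was called higher (edgeR with the library as a block). The medians were -0.37, -0.37 and -0.22 on the log2 scale. H2-D1 was lower in each organ, by log2 fold changes of -0.37 ± 0.038 in the proximal part, -0.42 ± 0.053 in the distal part and -0.44 ± 0.11 in the colon (SE, edgeR, adjusted p = 2.06e-05, 1.23e-04 and 0.0108, n = 5 libraries each). Tap2 was lower as well, by -0.38 ± 0.11, -0.59 ± 0.13 and -0.86 ± 0.18 (edgeR, adjusted p = 0.0121, 0.00367 and 0.00504), which in the colon means 19.0 ± 4.73 CPM in stem-called cells and 36.0 ± 10.98 CPM in the other cells (SD, n = 5). In proximal samples Psmb9 held 51.3 ± 5.24 CPM in stem-called cells and 70.5 ± 5.04 CPM in the other cells (log2 fold change -0.51 ± 0.053, edgeR, adjusted p = 2.09e-05). Tap1, Psmb8 and Psmb9 were called in both parts of the small intestine. H2-K1 was called in the proximal part (-0.14 ± 0.039, edgeR, adjusted p = 0.0107) and not in the colon, where its value was -0.26 ± 0.10 (adjusted p = 0.0706), and Tapbp likewise (-0.15 ± 0.046 in the proximal part and -0.28 ± 0.10 in the colon). Whether the gap differs between organs was not tested.

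Nlrc5 was called in the distal part, with 0.76 ± 0.49 CPM in stem-called cells and 4.03 ± 1.97 CPM in the other cells (SD, n = 5; log2 fold change -1.65 ± 0.42, edgeR, adjusted p = 0.00899). Without leukocyte-marked cells these levels were closer, with 0.58 ± 0.40 CPM in stem-called cells and 0.98 ± 0.49 CPM in the other cells (SD, n = 5). That difference within libraries was not tested. A single UMI suffices for the stem call, and depth differed with it: in the colon of high fat diet mouse 1, stem-called cells had a median of 18430 UMIs and the others 4263.5 UMIs. With all cells thinned to 3000 UMIs, which left out 961 cells and left 2215 stem-called, 2 of 9 were called in the proximal part, 2 in the distal part and 1 in the colon. Without leukocyte-marked cells 5, 4 and 2 were called, and Nlrc5 then had too few counts to be tested in the small intestine. The share of all genes called in these settings is not given, so these counts are not read against a background.

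Leukocyte-marked cells among those without the stem call carried more of all 9 genes than unmarked cells of the same libraries (9 of 9 higher, background 21.2% of 10401 genes). The median log2 fold change was 0.90, against -0.067 over all genes. H2-K1 averaged 1063 ± 311 CPM in marked and 355 ± 77.9 CPM in unmarked distal cells (SD, n = 5), but 1587 ± 179 CPM in marked and 1202 ± 236 CPM in unmarked colon cells. The log2 fold changes over all 15 libraries were 0.90 for H2-K1, 0.90 for H2-D1, 0.77 for B2m, 1.06 for Tap1, 1.68 for Tap2, 0.49 for Tapbp, 0.70 for Psmb8 and 0.42 for Psmb9 (edgeR with the library as a block, adjusted p between 8.50e-06 and 0.00363). Nlrc5 stood out at 3.68 ± 0.44 (SE, edgeR, adjusted p = 2.20e-06), with 51.9 ± 28.1 CPM in marked and 10.9 ± 4.53 CPM in unmarked colon cells, 50.9 ± 26.3 CPM in marked and 0.98 ± 0.49 CPM in unmarked distal cells, and 16.9 ± 13.6 CPM in marked and 0.76 ± 0.34 CPM in unmarked proximal cells (SD, n = 5 each). In unmarked cells the lowest colon sum of Nlrc5, 3.65 CPM, lay above the highest small intestine sum, 1.80 CPM. The mark is a count threshold: 3906 cells had 1 or 2 UMIs of the list and 345 had 3 or 4.

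**Figure D5:**
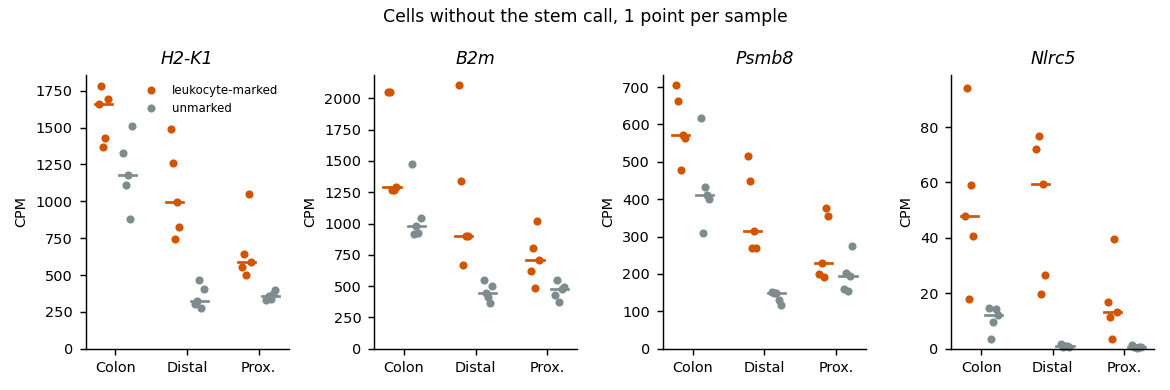
CPM (linear axes from 0) of H2-K1, B2m, Psmb8 and Nlrc5 in leukocyte-marked (orange) and unmarked (grey) cells without the stem call, by organ, with 1 point per sample (n = 5) and bars at the medians. Nlrc5 in unmarked cells stays at or below 1.80 CPM in the small intestine and reaches 14.8 CPM in the colon, while marked cells reach 94.2 CPM.

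Over the 15 stem-called sums the 9 genes varied together. The Pearson correlation of each gene's log2(CPM + 1) with the mean of the other 8, each scaled to the same spread, lay between 0.777 for Tapbp and 0.983 for Nlrc5. Among 7356 other genes with a mean of at least 20 CPM, the 10 most like the mean of the members were Parp9 (0.978), Iigp1 (0.969), Igtp (0.965), Ly6a (0.958), Foxd2 (0.957), Idh1 (0.953), Irgm2 (0.948), Apbb1ip (0.948), Hoxa7 (0.947) and 1600029D21Rik (0.947). Parp9, Iigp1, Igtp, Irgm2 and Ly6a are known as interferon-induced genes, and Hoxa7 is a positional gene of the hindgut side. The 15 points share 5 mice and 3 organs, and the colon sets them apart, so these values describe the organ contrast and not covariation within an organ.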

How the data were processed

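The deposited table holds UMI counts per gene and cell. Per the submitters' processing notes the genome build is mm10, and the aligner is not given in the sources used here. In the deposited counts, entries with 1 to 5 cells per gene and library were rarer than entries with 0 cells (94 with 1 cell, 47183 with 0), so rare genes look removed per library. Counts were summed per mouse, organ and stem call, with at least 20 cells per sum. The cell table's control mouse 3 was matched by elimination to the control mouse titled 2. Sums were tested with edgeR 4.0.16 in R 4.3.3 (TMM, filterByExpr, quasi-likelihood test, Benjamini-Hochberg threshold 0.05), with the mouse as a block between organs, the library as a block for stem call and leukocyte mark, and 6 organ and diet groups for diet. DESeq2 1.42.0 was an alternative, and scripts were tested on simulated data. Other alternatives were size factors, no filter on low counts, each mouse left out, leukocyte-marked cells or the 5% of cells with the most UMIs left out (in place of a doublet caller), thinning to 3000 UMIs, and other blocks. P-values for diet measure the spread between mice within organ and diet groups. Those for organ measure what is left within mice, and those for stem call and leukocyte mark what is left within libraries. The diet and diet-by-organ fits had no mouse block, so they ignore that organs of a mouse are paired. The floor given for a count of 0 covers counting error only. Values after ± are the SD between mice or the SE of the edgeR fit. Text names all 9 genes, list genes that were called (1 is not reported here), and the 10 genes most like the members. The members and lists were chosen with earlier results of these data known.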

Additional observations from a re-analysis of the deposited data

How the results depend on the processing

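Over 18 comparisons, 2128 values of single genes were recomputed under alternatives. Of these, 2056 kept their side of the threshold, 49 lost a call and 22 gained one. In 1 more the sign changed with a call in at least 1 of the settings. The 2056 include 151 values that changed sign but were not called in either setting. All 9 genes were called between colon and small intestine with each mouse left out, in both populations. In stem-called cells Tapbp lost that call with cells thinned to 3000 UMIs, and in cells without the stem call Tap2 and Tapbp lost it in control mice alone (adjusted p = 0.0564 and 0.067). No gene was called for diet in any alternative, and a replicate block by the number in the titles or in the cell table left 0 of 9 in every diet comparison. Same-numbered samples had correlations of 0.31 to 0.48 for number 1, -0.012 to 0.22 for number 2 of the titles and 0.25 to 0.44 for number 3 of the cell table. With only 2 pairs in either numbering, and no label that ties a number to a litter or batch, the numbers are not shown to pair mice.

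Between distal and proximal stem-called cells the count of 1 was 2 with DESeq2, 2 without the 5% of cells with the most UMIs, and 0 with thinned cells, with no replicate block, in high fat diet mice alone and in control mice alone. It was 0 to 1 with a mouse left out. In cells without the stem call the count of 2 was 1 with thinned cells, 1 with no replicate block, and 0 in mice of either diet alone. For the stem call, 7 in the proximal part became 2 with thinned cells and 2 with no replicate block, and 5 to 8 with a mouse left out. In the distal part 6 became 2 with thinned cells and 1 with no replicate block, and 5 to 7 with a mouse left out. In the colon 2 became 4 with DESeq2, 1 with thinned cells and 1 with no replicate block. Shares of all genes called under these alternatives are not given, so whether a change in count is specific to the members cannot be told. Tapbp in the proximal part changed sign with thinned cells, to 0.0061 on the log2 scale. Thinning leaves fewer UMIs and stem-called cells. The cause of the other changes was not tested. Some sums hold 5 or fewer UMIs of Nlrc5 or Tap2.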
